A study of Rattus norvegicus with 84 samples.

Results

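Extracellular vesicles (EVs) were isolated from the plasma of 3 rats killed 31 days after an ischaemic stroke and of 3 healthy rats, and their microRNAs (miRNAs) were sequenced. These 6 libraries, of 84 in the series and 21 of plasma EV miRNA, were chosen by their labels. All were wild-type adult male Sprague-Dawley rats. The study's methods give an age of 8 to 12 weeks for the rats put through stroke surgery, and no separate age for healthy rats. The day 31 rats were thus 31 days older than at surgery when killed. The stroke rats had their middle cerebral artery occluded for 90 min by a transient filament (tMCAO), and received saline into the carotid artery 3 days later. They are the study's control group, without the human neural stem cells (hNSCs) given to the treated rats. The healthy rats had no operation, so stroke, surgery, saline and the passage of a month cannot be told apart. The labels give the isolate as plasma EVs, although the extraction text also speaks of serum.

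MicroRNAs are short RNAs that guide Argonaute proteins to messenger RNAs, mainly through the seed at their 5′ end. Some are made almost wholly in a single tissue or blood cell, and cells release them inside vesicles and in protein complexes. The miRNAs in plasma therefore mix those of blood cells, endothelium, liver and other organs. In a bulk isolate, more vesicles from a source and more miRNA per vesicle cannot be told apart.

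The miRNAs below are named as in miRBase without the rat prefix, and levels are given as CPM, which here is the number of unique molecular identifiers (UMIs) per 1000000 miRBase UMIs after TMM scaling. The mature sequences of those on which the results turn follow, as deposited, 5′ to 3′ in DNA letters, with the seed (bases 2 to 8) in capitals. The first 2 come from neighbouring hairpins. The next 4 are miRNAs of striated muscle, of which 3 share a seed and miR-1b differs from miR-1-3p by 1 base. The following pair are pancreatic miRNAs from neighbouring hairpins, and the last 2 are abundant in lymphocytes.
miR-143-3p: tGAGATGAagcactgtagctca
miR-145-5p: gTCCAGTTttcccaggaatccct
miR-1-3p: tGGAATGTaaagaagtgtgtat
miR-1b: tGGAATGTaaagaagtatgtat
miR-206-3p: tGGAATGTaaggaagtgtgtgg
miR-133a-3p: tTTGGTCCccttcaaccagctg
miR-216a-5p: tAATCTCAgctggcaactgtga
miR-217-5p: tACTGCATcaggaactgactgg
miR-342-3p: tCTCACACagaaatcgcacccgt
miR-150-5p: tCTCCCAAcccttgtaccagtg

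Libraries held 873404 to 1841010 UMIs on the 699 miRBase miRNAs, of which 544 had a UMI in the 6 libraries and 309 passed the filter on low counts. The libraries did not sort by group. Over the tested miRNAs, log2 levels in day 31 rats 1 and 2 correlated at r = 0.982, whereas day 31 rat 3 correlated with them at 0.909 and 0.910 and with healthy rats 1 and 3 at 0.972 and 0.971. Healthy rat 2 also stood apart, with let-7 miRNAs summing to 746656 CPM against 250267 and 302329 in the other healthy rats. Its TMM factor was 0.697, so CPM values of this library are larger than its plain shares of UMIs. Values without day 31 rat 3 are therefore given beside the main results. Rat 3 was singled out from these data. Setting aside the day 31 rat most like the healthy ones tends by itself to widen the difference. The adjusted p-values and calls without it take no account of that choice and are no separate support. Nothing in the labels separates that rat from its group.

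No miRNA passed the test between the day 31 and healthy groups (edgeR quasi-likelihood test, with a call at more than 1.5-fold and a Benjamini-Hochberg adjusted p under 0.05). The count was 0 of 309, or 0.0%, and the smallest adjusted p was 0.093. Without adjustment, 26 miRNAs were higher and 26 lower at a p under 0.05. Of these, 26 higher (8.41% of those tested) and 25 lower (8.09%) also passed 1.5-fold. DESeq2 called 16 higher and 2 lower, and limma on log2(TPM + 1) called 0. The 3 levels of each group did not overlap for 24 miRNAs that were higher at day 31 (7.77%) and 17 that were lower (5.5%). Overlap here and below is judged on CPM, so it depends on the TMM scaling.

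Day 31 rat 3 decided the count. Without it, 18 miRNAs were called higher (5.54%) and 14 lower (4.31%) of 325 tested, or 9.85% in all, although the 2 remaining rats then stood for the group. Leaving out any other of the 6 libraries left the count at 0. Rats with the same replicate number in the 2 groups deviated from their group means together, but those at days 4 and 31 did not. The labels do not say what that number shares. With it as a block, a fit to the 6 libraries alone called 18 higher and 14 lower of 265 (12.1%). That fit was added after the data were seen. The planned block over all 7 plasma groups called 0. The 32 miRNAs called without rat 3 and the 32 called with the block of the 6 libraries had 16 in common. The direction split also depended on scaling. The median log2 fold change over the 309 miRNAs was -0.04 with TMM and 0.12 with RLE factors, and with RLE the unadjusted count was 45 higher and 11 lower.

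**Figure D1:**
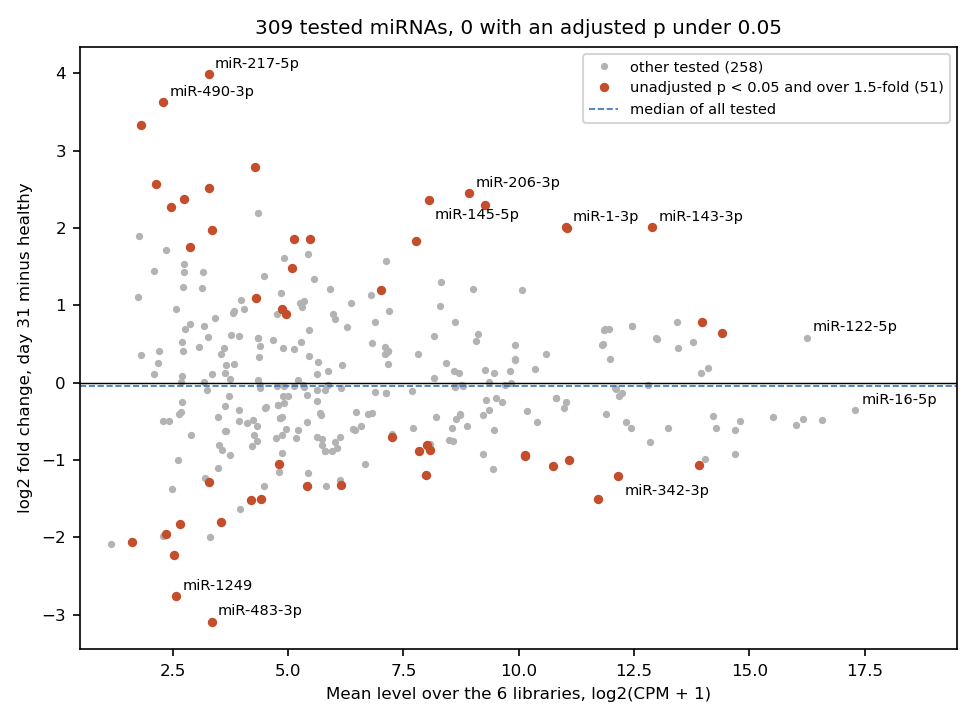
Log2 fold change, day 31 minus healthy, against the mean level over the 6 libraries for each of the 309 tested miRNAs (points). The 51 miRNAs with an unadjusted p under 0.05 and a change over 1.5-fold are in red, the dashed line is the median of -0.04, and abundant miRNAs such as miR-143-3p and miR-1-3p lie near a log2 fold change of 2.

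The plasma profile itself was that of blood cells and liver. By mean TPM the most abundant miRNAs were miR-16-5p of red cells, let-7a-5p, the hepatocyte miRNA miR-122-5p, let-7c-5p, let-7f-5p, let-7b-5p, the endothelial and platelet miRNA miR-126a-3p, let-7e-5p, the leukocyte miRNA miR-142-3p and miR-30a-5p. Together these 10 took 57.9% to 70.6% of the UMIs of a library. Levels of miR-16-5p were 201047, 136906 and 283842 CPM in healthy rats 1, 2 and 3 and 84207, 80601 and 321895 CPM in day 31 rats 1, 2 and 3. The groups overlapped, with a log2 fold change of -0.35 ± 0.53 (SE). Of the 10, only miR-30a-5p did not overlap between groups in CPM. It was at 12897 to 21854 CPM in healthy and 22759 to 31629 CPM in day 31 plasma (log2 fold change 0.64 ± 0.28, unadjusted p = 0.0348, edgeR adjusted p = 0.278). In TPM, which has no TMM scaling, it overlapped, with a healthy maximum of 21753 and a day 31 minimum of 21262.

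The miRNA with the smallest p was miR-143-3p, which is abundant in vascular smooth muscle. Its level was 5160, 2070 and 4843 CPM in the healthy rats and 22207, 16168 and 10153 CPM in the day 31 rats. Every day 31 library, rat 3 included, lay above every healthy library. The mean ratio was 4.02-fold (log2 fold change 2.01 ± 0.49, n = 3 per group, unadjusted p = 0.000586, edgeR adjusted p = 0.093). Without day 31 rat 3 the log2 fold change was 2.24 and the edgeR adjusted p was 0.0195.

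Its neighbour miR-145-5p was at 151, 114 and 125 CPM in healthy plasma and at 1019, 782 and 199 CPM at day 31. The groups did not overlap, but rat 3 lay much nearer to the healthy rats than to rats 1 and 2 (log2 fold change 2.36 ± 0.62, edgeR adjusted p = 0.093, and 2.78 without rat 3, edgeR adjusted p = 0.0181). The passenger strand miR-143-5p followed the same order of rats at day 31 only, with 28.5, 10.7 and 36.6 CPM in healthy and 138, 87.4 and 47.2 CPM in day 31 plasma. The other strand of the neighbour, miR-145-3p, overlapped, since rat 3 held 18.5 CPM against a healthy range of 15.2 to 23.3 CPM. All 4 strands of these hairpins, the whole vascular smooth muscle list, had an unadjusted p under 0.05, against 8.41% of all tested miRNAs that were higher. They come from neighbouring hairpins and include the miRNA with the smallest p, so they are not 4 separate observations. Without rat 3 all 4 were called higher, against 5.54% of all tested. Their median log2 fold change was 1.93, against -0.04 over all tested miRNAs. Their summed level was 2210 to 5363 CPM in healthy and 10417 to 23486 CPM in day 31 plasma.

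Among the 6 libraries, the striated muscle miRNAs were high in day 31 rats 1 and 2. miR-1-3p, found in heart and skeletal muscle, was at 988, 1175 and 1426 CPM in the healthy rats and at 8218, 4865 and 1330 CPM in the day 31 rats (log2 fold change 2.01 ± 0.66, edgeR adjusted p = 0.142, and 2.43 without rat 3, edgeR adjusted p = 0.0195). miR-206-3p, largely of skeletal muscle, was at 204, 286 and 313 CPM in healthy plasma and at 2112, 2133 and 155 CPM at day 31 (log2 fold change 2.46 ± 0.81, edgeR adjusted p = 0.142, and 2.97 without rat 3, edgeR adjusted p = 0.0195). miR-133a-3p, made from the same transcripts as miR-1, was at 367, 526 and 186 CPM and at 2769, 2300 and 236 CPM. In each case rats 1 and 2 stood far above the healthy range, and rat 3 lay within it or below it. miR-1b could not be separated from miR-1-3p. It had 980 to 1384 CPM in healthy plasma and nearly the same count as miR-1-3p in every library, as reads that fit both sequences were counted for both.

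Of the 8 miRNAs in the muscle list, 7 were tested. All 7 had a positive log2 fold change, from 0.25 to 2.46 with a median of 2.01, and 5 had an unadjusted p under 0.05 (8.41% of all tested). The list's summed level was 1779, 2187 and 2045 CPM in the healthy rats and 13957, 9965 and 1894 CPM in the day 31 rats. Without rat 3, 4 of the 7 were called higher, against 18 of 325 over all tested. The cardiac miRNA miR-208b-3p did not share this order. It was at 6.04, 0.89 and 0 CPM in healthy plasma and at 11.0, 8.55 and 17.6 CPM in day 31 plasma, highest in rat 3 (log2 fold change 2.27 ± 1.01, edgeR adjusted p = 0.278).

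The plasma EV mRNA libraries of the same-numbered rats were read for marker genes, chosen with these results known. Acta1, the skeletal muscle actin, was at 0, 4.25 and 0 CPM (here reads per 1000000 on annotated genes) in the healthy rats and at 24.9, 35.7 and 0 CPM in the day 31 rats. Alb, the hepatocyte gene for albumin, was at 1724, 2653 and 1471 CPM in the healthy rats and at 23312, 15564 and 1909 CPM in the day 31 rats. Both genes were high in day 31 rats 1 and 2 and not in rat 3, as the muscle miRNAs were. The muscle gene Ckm split less sharply. It was at 8.47, 3.97 and 0.62 CPM in the healthy rats and at 18.3, 10.1 and 5.83 CPM in the day 31 rats. Whether these RNAs have a part in the miRNA levels was not tested.

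The pancreatic miRNAs had the same split. miR-217-5p was at 5.17, 2.68 and 2.44 CPM in the healthy rats and at 142, 25.7 and 1.85 CPM in the day 31 rats (log2 fold change 3.99 ± 1.34, edgeR adjusted p = 0.142, and 4.53 without rat 3, edgeR adjusted p = 0.0245). Its neighbour miR-216a-5p was at 11.2, 20.6 and 2.44 CPM and at 152, 85.5 and 3.70 CPM (log2 fold change 2.78 ± 1.04, edgeR adjusted p = 0.209, and 3.32 without rat 3, edgeR adjusted p = 0.0245). For both, rat 3 was at the healthy level. The other members of the pancreas and pituitary list were not of this kind, as miR-375-3p of islets was at 63.8 to 172 CPM in healthy and 113 to 277 CPM in day 31 plasma.

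**Figure D2:**
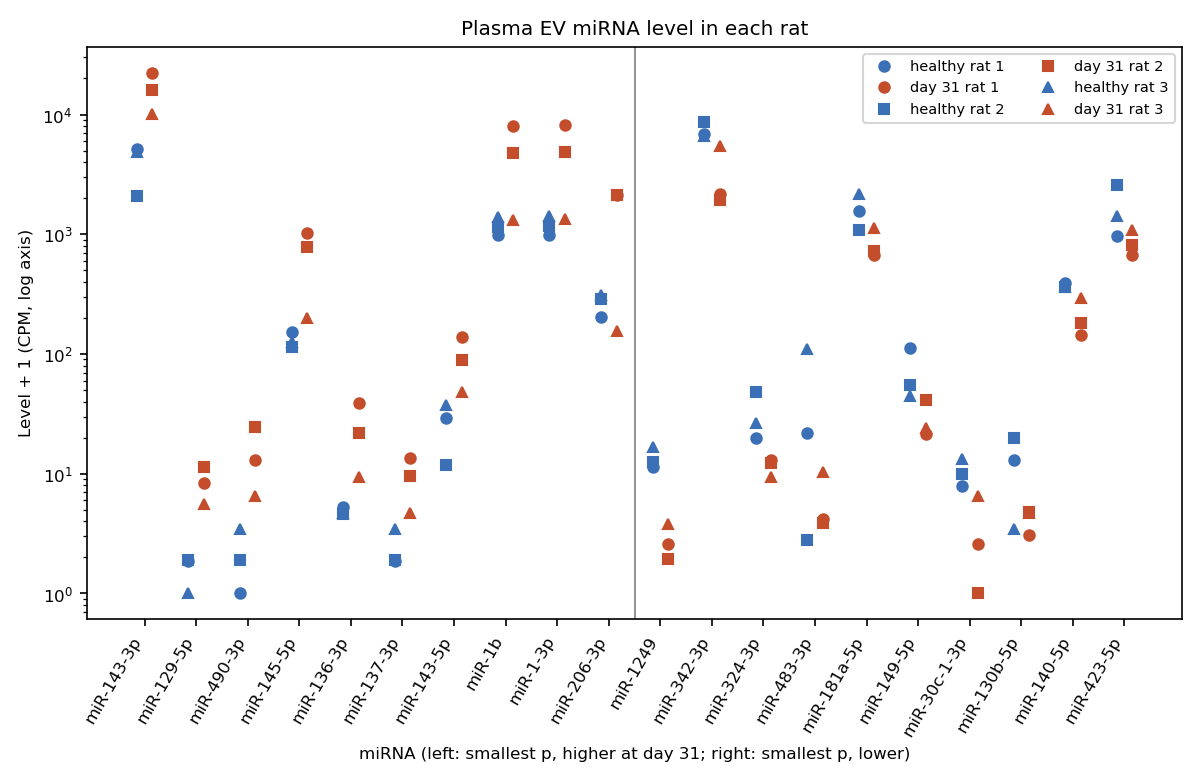
Level plus 1 in CPM (log axis) in each rat for the 10 miRNAs with the smallest p that were higher at day 31 (left of the line) and the 10 that were lower (right). Blue points are healthy and red points day 31 rats, and the triangle of day 31 rat 3 lies closest to the healthy points for miR-145-5p, miR-1-3p, miR-206-3p and miR-342-3p.

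The epithelial miR-200 family and the miRNAs of the imprinted Dlk1-Dio3 locus, a large cluster expressed from the maternal chromosome, were also high in rats 1 and 2. All 5 members of the miR-200 family had positive log2 fold changes, with a median of 0.99, and none had a p under 0.05 (edgeR, unadjusted). The median was 1.45 without rat 3, with 0 called (edgeR). miR-200a-3p was at 1080, 1066 and 394 CPM in the healthy rats and at 2599, 2738 and 478 CPM in the day 31 rats. Of 38 Dlk1-Dio3 miRNAs, 35 had a UMI and 16 were tested. All 16 were positive, against 144 of all 309, with a median of 1.49, and 4 had an unadjusted p under 0.05, against 8.41% of all tested that were higher. They come from the same locus, so they are not 16 separate observations. Some had few UMIs in healthy plasma, such as miR-434-5p (3, 7 and 3) and miR-136-5p (3, 5 and 2). Such members could pass the filter on low counts through other libraries, which can tilt a count of signs. Without rat 3 the median of the 16 was 1.92 and 1 was called higher, against 5.54% of all tested. Levels in rats 1 and 2 were above every healthy library for 14 of the 16, whereas in rat 3 they were above for 2 and below every healthy library for 7. Over all 309 tested miRNAs, rats 1 and 2 were both above the healthy range for 87, and rat 3 was above it for 68 and below it for 80.

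Within that locus, miR-127-3p was at 43.1, 72.5 and 6.11 CPM in the healthy rats and at 187, 195 and 6.47 CPM in the day 31 rats. Only miR-136-3p and miR-341 did not overlap among the 16. miR-341 was at 6.04, 4.47 and 3.66 CPM in healthy and 23.1, 24.7 and 9.25 CPM in day 31 plasma. Levels of miR-136-3p were 4.31, 3.58 and 3.66 CPM in healthy and 37.8, 20.9 and 8.32 CPM in day 31 plasma (log2 fold change 2.51 ± 0.71, edgeR adjusted p = 0.109). The healthy values of miR-136-3p rest on 5, 4 and 3 UMIs.

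Several miRNAs typical of neurons were absent or scarce in plasma. The neuronal miRNA miR-124-3p had 0 UMIs in all 6 libraries, as did miR-124-5p, which allows up to 1.57 to 3.66 CPM in a library (3 UMIs of its total, counting error only). miR-129-5p and miR-137-3p, both of neurons, were among the 10 with the smallest p, on very few molecules. miR-129-5p had 1, 1 and 0 UMIs in the healthy libraries and 14, 11 and 5 in the day 31 libraries, a ratio of 11.5 with a 95% exact counting interval of 2.92 to 99.3. miR-137-3p had 1, 1 and 2 UMIs and 24, 9 and 4 UMIs. miR-490-3p, which lies in a muscarinic receptor gene, had 0, 1 and 2 UMIs and 23, 25 and 6 UMIs, a ratio of 13.8 with an interval of 4.48 to 69.0. In all 3, each day 31 library was above each healthy library. UMIs mark single molecules, but the interval leaves out the spread between rats.

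Of the 15 brain neuron miRNAs, 11 were tested, and 3 were higher and 1 lower at an unadjusted p under 0.05 (8.41% and 8.09% of all tested), with a median log2 fold change of 0.45. The lower one was miR-128-3p, at 3061, 15566 and 2171 CPM in the healthy rats and 2525, 2666 and 2124 CPM in the day 31 rats. Its difference came from healthy rat 2, since the other 5 libraries lay between 2124 and 3061 CPM. The summed level of the list was 4089 to 16234 CPM in healthy and 3545 to 3669 CPM in day 31 plasma. The oligodendrocyte and astrocyte list had 5 tested members and 0 with an unadjusted p under 0.05 (edgeR).

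Of the 25 miRNAs lower at an unadjusted p under 0.05 (edgeR) and over 1.5-fold, 4 belonged to the lymphocyte list, the most of any list. miR-342-3p was at 6814, 8578 and 6653 CPM in the healthy rats and at 2152, 1938 and 5470 CPM in the day 31 rats. All day 31 libraries were below all healthy libraries, with rat 3 only just so (log2 fold change -1.21 ± 0.38, unadjusted p = 0.00447, edgeR adjusted p = 0.142). Without rat 3 the log2 fold change was -1.86 (edgeR adjusted p = 0.0163). miR-150-5p, of mature B and T cells, was at 28638, 22861 and 22363 CPM and at 5700, 6632 and 22936 CPM, so that rat 3 lay inside the healthy range (log2 fold change -1.07, edgeR adjusted p = 0.288, and -2.01 without rat 3, edgeR adjusted p = 0.0195). miR-155-5p, induced in activated leukocytes, was at 374, 343 and 537 CPM and at 111, 108 and 329 CPM, without overlap. In TPM, without TMM scaling, its groups did overlap. miR-181a-5p, high in developing lymphocytes, was at 1563, 1076 and 2177 CPM and at 672, 729 and 1117 CPM.

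All 8 members of the lymphocyte list were tested, 7 had a negative log2 fold change and 4 of these an unadjusted p under 0.05 (8.09% of all tested), with a median of -1.0. Without rat 3, 4 were called lower, against 4.31% of all tested, and the median was -1.54. The eighth, miR-29a-3p, was at 5681 to 7581 CPM in healthy and 8283 to 12802 CPM in day 31 plasma, and its count also holds reads that fit miR-29c-3p. In the mRNA libraries of the same-numbered rats, the B cell gene Cd79b was at 28.1, 9.26 and 17.6 CPM in the healthy rats and at 2.54, 0 and 8.60 CPM in the day 31 rats, and the T cell gene Cd3e was at 16.3, 7.66 and 8.98 CPM and at 4.72, 0 and 3.94 CPM. Each day 31 rat was below each healthy rat for both genes. Their part in the miRNA levels was not tested.

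The remaining miRNAs with a small p and lower values were mostly scarce. miR-1249 was at 10.3, 11.6 and 15.9 CPM in healthy plasma and at 1.58, 0.95 and 2.77 CPM at day 31 (log2 fold change -2.76 ± 0.77, edgeR adjusted p = 0.109), on 3, 1 and 3 UMIs in the day 31 libraries. miR-483-3p, from an intron of Igf2, was at 20.7, 1.79 and 109 CPM and at 3.15, 2.85 and 9.25 CPM, so that healthy rat 2 was below every day 31 rat. miR-140-5p, best known from cartilage, was at 394, 360 and 364 CPM and at 142, 180 and 293 CPM, without overlap (log2 fold change -0.86 ± 0.34, edgeR adjusted p = 0.223). miR-324-3p, miR-149-5p and miR-30c-1-3p did not overlap either, whereas miR-130b-5p and miR-423-5p did. In TPM, without TMM scaling, the groups did overlap for miR-140-5p and miR-149-5p.

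**Figure D3:**
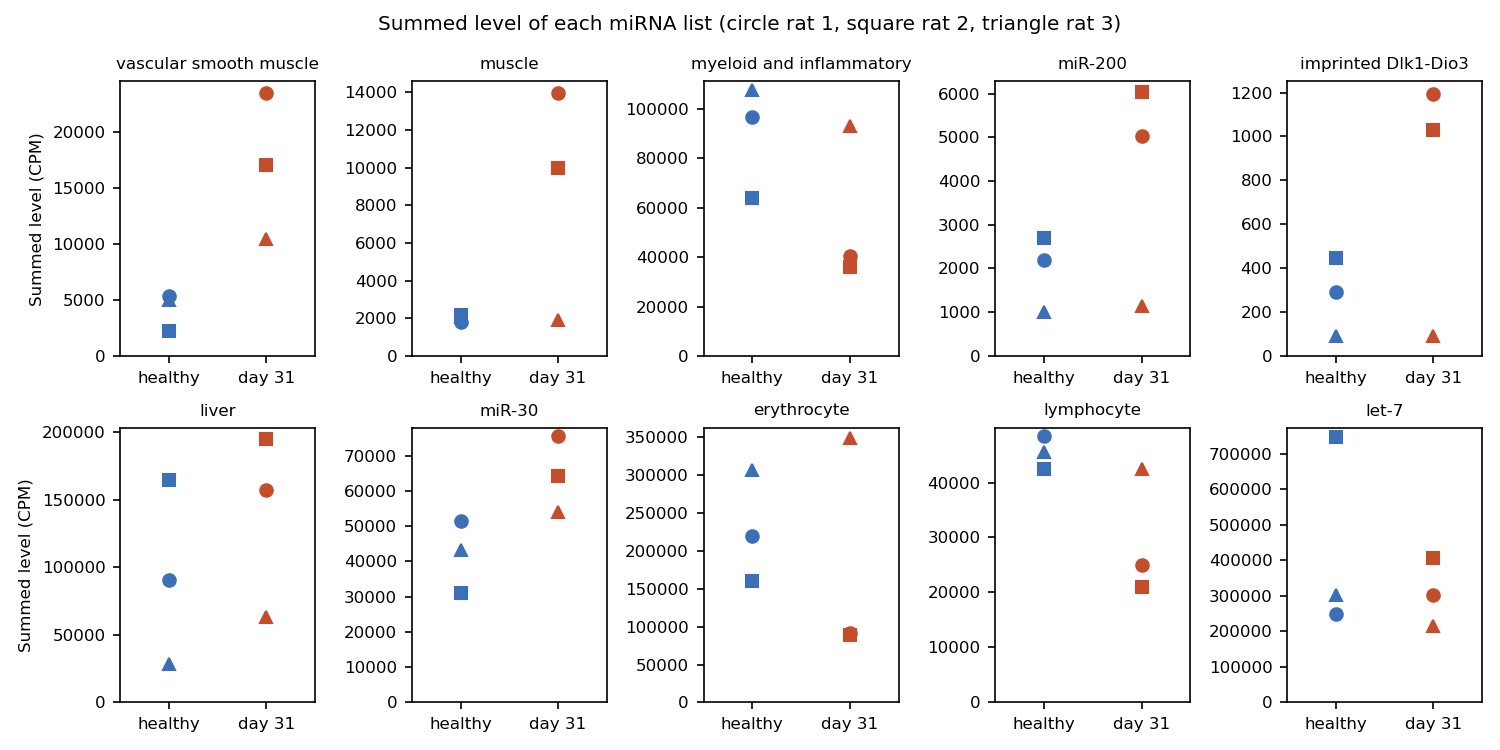
Summed level in CPM of 10 miRNA lists in each rat (linear axes from 0, blue healthy, red day 31; circle, square and triangle for rats 1, 2 and 3). The triangle of day 31 rat 3 lies with the healthy points for the muscle, miR-200, Dlk1-Dio3, lymphocyte and myeloid lists and above them for the vascular smooth muscle list.

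Red cell miRNAs varied more between rats than between groups. The 10 members of the erythrocyte list summed to 219709, 160009 and 307418 CPM in the healthy rats and to 91712, 89639 and 349256 CPM in the day 31 rats, and 0 of the 10 had an unadjusted p under 0.05 (edgeR), with a median log2 fold change of -0.39. Without rat 3 the median was -1.54 and 1 of the 10 was called lower, against 4.31% of all tested. The log2 ratio of miR-451-5p to miR-23a-3p, a usual index of red cell material in plasma, was -1.40, -2.67 and -0.63 in the healthy rats and -3.30, -3.22 and -0.28 in the day 31 rats. It was thus lowest in the rats whose muscle, pancreas and Dlk1-Dio3 miRNAs were highest, and highest in day 31 rat 3. Red cell mRNAs in the libraries of the same-numbered rats were not below the healthy range in day 31 rats 1 and 2. Hba1, for a globin chain, was at 26629, 12932 and 37614 CPM in the healthy rats and at 25517, 39124 and 65812 CPM in the day 31 rats, and Alas2, of erythroid haem synthesis, at 1099, 402 and 1468 CPM and at 1143, 1726 and 2611 CPM. With the erythrocyte list left out of the fit, 0 miRNAs were called and the unadjusted counts were 27 higher and 20 lower. Whether the share of red cell miRNA bears on the other levels was not tested further.

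Of 7 tested liver miRNAs, 6 were positive with a median of 0.69 (7 were positive with RLE factors), and 0 had an unadjusted p under 0.05 (edgeR). For 4 of the 7 the groups did not overlap, with higher values at day 31, against 7.77% of all tested, and rat 3 was above every healthy library for 5. miR-194-5p was at 450, 268 and 344 CPM in the healthy rats and at 1254, 599 and 605 CPM in the day 31 rats (log2 fold change 1.21, edgeR adjusted p = 0.336), and miR-192-5p at 2983, 2878 and 3607 CPM and at 5916, 3771 and 5577 CPM. The other 2 without overlap were miR-122-3p and miR-802-5p. The most abundant member, miR-122-5p, overlapped, at 17218 to 144420 CPM in healthy and 47535 to 175586 CPM in day 31 plasma.

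The 10 myeloid and inflammatory miRNAs had a median of -0.51 and 1 with an unadjusted p under 0.05, which was miR-155-5p. The 9 let-7 and 11 miR-17-92 miRNAs all had negative log2 fold changes, with medians of -0.47 and -0.50 and 0 unadjusted p under 0.05 (edgeR), although 3 of the 11 were positive with RLE factors. In the miR-30 list of 10, 3 members were higher and 1 lower at an unadjusted p under 0.05 (8.41% and 8.09% of all tested), among them miR-30d-5p at 10173 to 15186 CPM in healthy and 14769 to 25792 CPM in day 31 plasma. The platelet and endothelial list had a median of -0.01, which became 0.16 with RLE factors. The miR-29 list had a median of 0.42, the miR-34 and miR-449 list -0.50, and the hypoxia and angiogenesis list -0.20, each with 0 members at an unadjusted p under 0.05 (edgeR). None of the 19 lists held a called miRNA.

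Of the 21 miRNAs that the study discusses by name, 18 were tested, of which 1 was higher and 3 were lower at an unadjusted p under 0.05, and 0 were called (edgeR). Over all tested miRNAs, 16.5% passed that level in either direction. The study chose them partly on these samples. miR-9a-5p, of neural progenitors and neurons, was at 18.1, 15.2 and 33.0 CPM in the healthy rats and at 110, 45.6 and 26.8 CPM in the day 31 rats. miR-21-5p was at 10546 to 33672 CPM in healthy and 10790 to 26846 CPM in day 31 plasma, and miR-24-3p at 1140 to 1313 CPM and 1311 to 1476 CPM. Exact two-sided permutation tests of the 21, in which 3 rats against 3 cannot go below p = 0.10, gave that value for miR-532-3p alone.

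To place day 31 in time, it was compared with the control groups at days 4 and 10, each of 3 other rats. Against day 4, 0 of 309 miRNAs were called (0.0%; edgeR; 13 higher, 4.21%, and 11 lower, 3.56%, at an unadjusted p under 0.05, and 2 lower by DESeq2). miR-143-3p was at 12891, 8807 and 7535 CPM at day 4, above the healthy range. It differed from day 31 by a log2 fold change of 0.73 (edgeR adjusted p = 0.958). The vascular smooth muscle list, which holds miR-143-3p, summed to 2903, 9227 and 5178 CPM at day 10. Of these sums, 9227 CPM lay above the healthy maximum of 5363 CPM, and the others lay within the healthy range. A higher level was thus not present in every rat at day 10. miR-342-3p was at 1700, 2428 and 3008 CPM at day 4 and 3236, 3075 and 3402 CPM at day 10. All poststroke control libraries thus lay below the healthy range of 6653 to 8578 CPM.

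Against day 10, 25 of 309 miRNAs were called (8.09%), 19 of them higher at day 31 (6.15%) and 6 lower (1.94%). The higher ones included miR-206-3p (161, 272 and 97.7 CPM at day 10; log2 fold change 3.05, edgeR adjusted p = 0.0425), miR-145-5p (40.0, 228 and 86.6 CPM; log2 fold change 2.50), miR-217-5p (0.93, 0 and 1.40 CPM; log2 fold change 5.97) and miR-365-3p (25.1, 64.8 and 25.1 CPM; log2 fold change 2.57). Of the muscle list 3 members were called higher, of the miR-200 family 3, of the vascular smooth muscle list 2, of the Dlk1-Dio3 list 2 and of the brain neuron list 3, the last with 2 lower. This count too rested on single libraries. It was 0 without any of day 10 rats 1 and 3 and day 31 rats 1 and 2, 48 without day 10 rat 2, and 82 without day 31 rat 3.

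**Figure D4:**
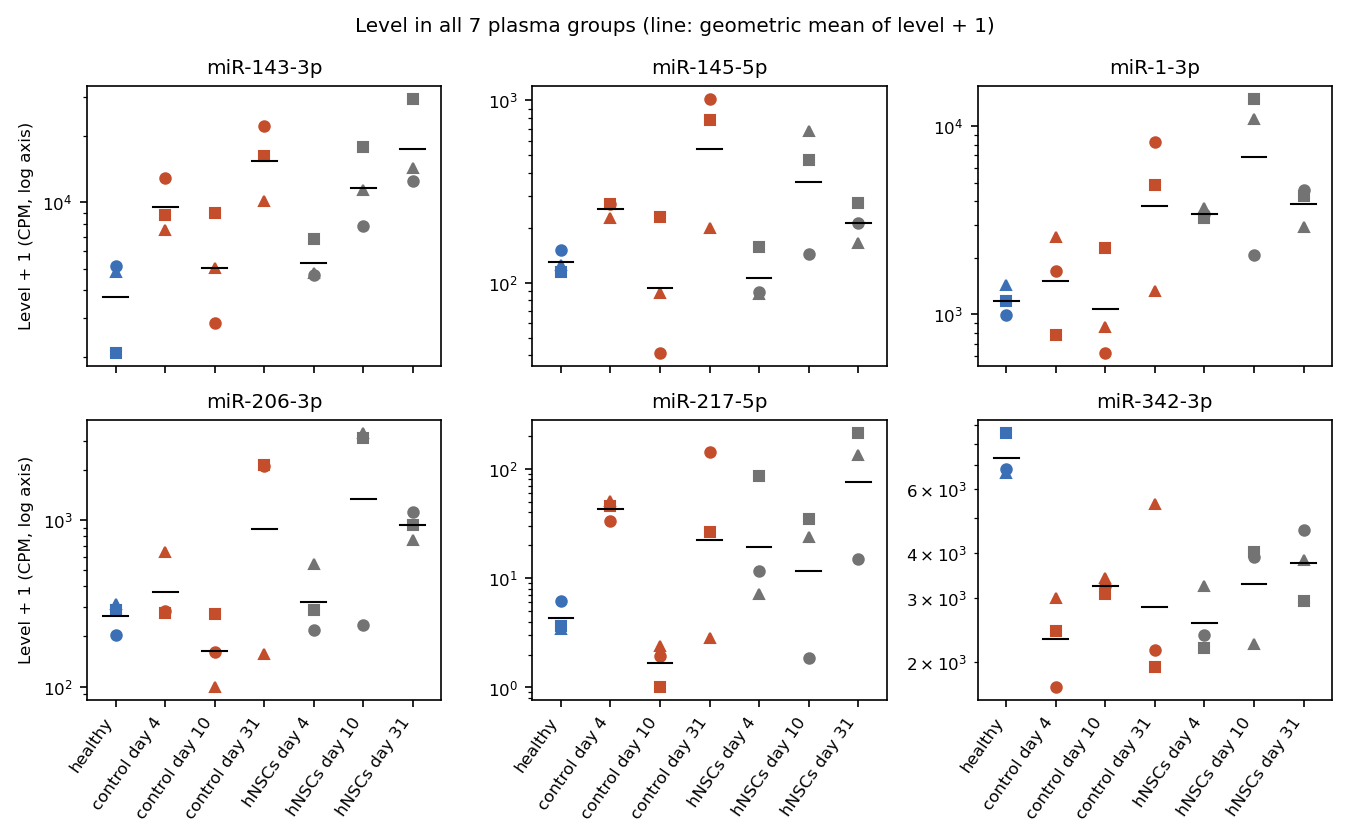
Level plus 1 in CPM (log axis) of 6 miRNAs in each of the 3 libraries of all 7 plasma groups, with the geometric mean as a line. Healthy libraries are blue, stroke control libraries red and hNSCs libraries grey; miR-342-3p is highest in the 3 healthy libraries, and miR-217-5p is near 1 to 3 in day 10 controls and day 31 rat 3.

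Brain tissue EVs of the same-numbered rats gave 88 called miRNAs of 350 between day 31 and healthy (25.1%). The difference between the plasma and the brain effect was called for 0 of 384 miRNAs (0.0%; edgeR with the rat as a block; 15 higher, 3.91%, and 45 lower, 11.7%, in plasma at an unadjusted p under 0.05, and 14 by DESeq2). Without day 31 rat 3 it was called for 74. The median difference moved from -0.39 to 0.01 with RLE factors, so directions here depend on scaling. miR-342-3p was lower in both sources, with 2721, 3471 and 2590 CPM in healthy and 1314, 1178 and 1309 CPM in day 31 brain EVs, where it was called (log2 fold change -1.21 ± 0.18, edgeR adjusted p = 9.45e-05). The 2 effects differed by -0.45 ± 0.56 (log2).

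For miR-143-3p the brain EVs showed 2309 to 3480 CPM in healthy and 2415 to 3294 CPM in day 31 rats (log2 fold change 0.05 ± 0.23), and the plasma effect exceeded the brain effect by 1.70 ± 0.59 (unadjusted p = 0.0149, edgeR adjusted p = 0.195). miR-206-3p likewise showed no difference in brain EVs beyond its spread, with 95.5 to 246 CPM and 136 to 159 CPM. miR-483-3p had opposite signs, with 6.82, 37.9 and 14.0 CPM in healthy and 274, 130 and 60.4 CPM in day 31 brain EVs (log2 fold change 2.86 ± 0.70, edgeR adjusted p = 0.0056), and the difference between sources was -5.47 ± 1.72 (unadjusted p = 0.0089, edgeR adjusted p = 0.167). miR-423-5p, too, was called higher in brain EVs (log2 fold change 1.24, edgeR adjusted p = 0.00498) while its plasma log2 fold change was -0.95 ± 0.38.

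**Figure D5:**
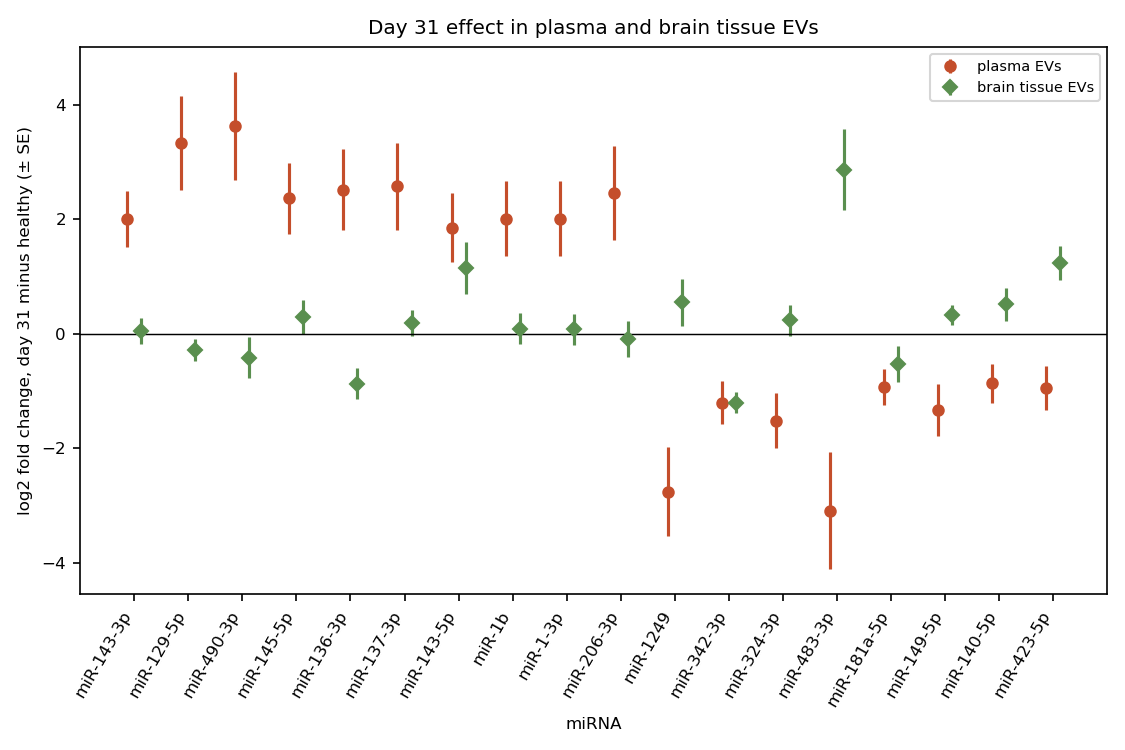
Log2 fold change, day 31 minus healthy, with its SE, in plasma EVs (red circles) and brain tissue EVs (green diamonds) for the 18 of 20 miRNAs with the smallest plasma p that were tested in both. The 2 values nearly coincide at -1.21 for miR-342-3p, and lie on opposite sides of 0 for miR-483-3p and miR-423-5p.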

How the data were processed

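The rats' EVs were isolated by size exclusion chromatography. Small RNA libraries carrying UMIs were sequenced, and the authors kept reads of 18 to 30 nt and matched them to miRBase and the Rnor_6.0 genome. The deposited count tables hold raw UMI counts per miRNA. The deposited TPM table holds the same counts per 1000000 UMIs of a library, and the deposited mRNA table raw counts per gene. Groups came from the labels, and members and lists were chosen with earlier results of these data known.

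Counts of the 699 miRBase miRNAs were filtered with filterByExpr, scaled by TMM and tested with edgeR 4.0.16 (quasi-likelihood, 21 plasma libraries in 7 groups of 3), p-values being adjusted over all 309 tested miRNAs. Alternatives used DESeq2 1.42.0, limma 3.58.1 on log2(TPM + 1) with mean TPM over 5, or log2(TPM + 0.1), other scaling and filters, and single libraries left out. The study stated limma with the 1.5-fold and 0.05 thresholds used here. The plasma and brain effects were compared in 12 libraries with the rat as a block. Scripts were tested on simulated data.

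Named miRNAs were the 10 per direction with the smallest p (none being called), the 10 most abundant, the 4 highest members of each list and the miRNAs the study names. Other list members with an unadjusted p under 0.05 (such as miR-217-5p and miR-208b-3p), miR-194-5p, miR-802-5p, miR-365-3p and the mRNA markers were added after their values were seen. Rats of different groups were matched only by replicate number, and the labels do not say what a number shares. Deviations of same-numbered healthy and day 31 rats from their group means correlated at 0.34, 0.59 and 0.54. The number entered only as a block in alternative fits, and the main test between plasma groups took group alone. For same-numbered day 4 and day 31 rats the correlations were 0.21, -0.55 and -0.56. In 21 pairs of near-identical miRNAs, counts differed by less than 0.35 (log2), and these were not separated. Sequences are the deposited ones. Of 627 found in RefSeq (GRCr8), 626 were the same, and neighbouring hairpins were those within 10 kb on GRCr8. No 2 libraries agreed within sampling noise. The 3 rats of a group are the labels' biological replicates.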

Additional observations from a re-analysis of the deposited data

Results flagged for a closer look

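Day 31 differed from day 10 among the control rats by a direct test of the difference (edgeR quasi-likelihood, 25 miRNAs called). The count was 0 with the replicate block and 0 without day 10 rat 1, day 10 rat 3, day 31 rat 1 or day 31 rat 2, each left out in turn, and it was 48 without day 10 rat 2 and 82 without day 31 rat 3. Both comparisons use the same 3 day 31 libraries, so an overlap between them is no separate support. Of the 20 miRNAs with the smallest p against healthy plasma, 5 were among the 25 called, against 8.09% of all tested. Their log2 fold changes, day 31 minus day 10, were 3.90 for miR-129-5p, 3.87 for miR-490-3p, 2.50 for miR-145-5p, 4.02 for miR-137-3p and 3.05 for miR-206-3p, each with an edgeR adjusted p of 0.0425, which became 0.0511 to 0.0617 with the block. For miR-129-5p, miR-490-3p and miR-137-3p the day 10 level was 0 to 2.82 CPM, so the fold change depends on the prior count of the fit. Levels of miR-206-3p at day 31 were 2112, 2133 and 155 CPM, and the third rat lay within the day 10 range of 97.7 to 272 CPM.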

How the results depend on the processing

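For day 31 against healthy, the count of 0 calls became 18 with DESeq2, 2 with limma on log2(TPM + 1) without a filter, 7 without the filter on low counts, and 51 with an unadjusted p. It stayed 0 with limma and either pseudocount, RLE factors, library totals, the 2 groups alone, predicted miRNAs added, the erythrocyte list left out, no minimum fold, and near-identical pairs merged. The replicate block over 7 groups gave 0, and the replicate block on the 6 libraries alone, added after the data were seen, gave 32. Leaving out each library gave 0 to 32, the 32 coming without day 31 rat 3. Of the 20 miRNAs named by p, 15 were then called, 11 with DESeq2 and 9 with the added block. Over all tested miRNAs, 32 of 325 were called without rat 3, 18 of 309 with DESeq2 and 32 of 265 with the added block. The 20 had been picked by p on these same libraries, so their calls are no separate support. With predicted miRNAs added, 3 log2 fold changes changed sign, to 0.17 for miR-181a-5p, 0.15 for miR-140-5p and 0.19 for miR-423-5p.

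Day 31 against day 4 gave 2 calls with DESeq2, 1 without the filter, 1 with merged pairs, and 0 to 2 with a library left out. Day 31 against day 10 gave 55 with DESeq2, 4 with limma, 39 without the filter, 0 with the replicate block (same-numbered rats did not deviate together there, at -0.18, 0.01 and 0.16), and 0 to 82 with a library left out. The plasma and brain difference gave 14 with DESeq2, 14 without the filter, 9 without the rat block, and 0 to 74 with a rat left out. Unless stated, the cause was not tested. With 3 rats per group and a common biological coefficient of variation of 0.477, small differences were not detectable, and levels of a few CPM rest on single UMIs.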

Other observations

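The hNSCs group at day 31, another 3 rats with stroke, was in the fit over all plasma groups but in none of the contrasts above. Its vascular smooth muscle list summed to 12801, 29977 and 14621 CPM and its muscle list to 6730, 5944 and 4256 CPM, all above the healthy ranges of 2210 to 5363 CPM and 1779 to 2187 CPM. Its Dlk1-Dio3 list summed to 238, 248 and 182 CPM, within the healthy range of 91.6 to 445 CPM. No miRNA was called between the hNSCs and control groups at day 31 (0 of 309 by edgeR, with 13 higher and 22 lower at an unadjusted p under 0.05).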
